A study of Mus musculus with 4 samples.

Results

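The genes described here are 2 neurotrophins, Bdnf and Ntf3, and 4 of their receptors, Ntrk2, Ntrk3, Ngfr and Sort1. They were taken by symbol from the gene counts of 4 sequencing libraries, where they made up 6 of 32531 gene names, and all 6 had enough counts to be tested. The libraries came from cortex (cerebral) of adult mice of the Cbln1-EGFP/Rpl10a line NIDA030, which make the ribosomal protein Rpl10a fused to EGFP. All 4 libraries carry that genotype. The 2 IP libraries (IP 2 and IP 4) held ribosome-bound RNA captured with anti-EGFP antibodies, a method called translating ribosome affinity purification. The 2 input libraries (input 2 and input 4) held cortex RNA labelled as input, taken without the capture step. The labels name the Cbln1 line and give no control without the transgene, and they do not say whether the replicates came from different mice. The p-values therefore speak to differences among these 4 libraries alone, and their spread may be technical.

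Neurotrophins are secreted growth factors made as longer precursors. Brain-derived neurotrophic factor (Bdnf) binds the receptor tyrosine kinase TrkB (gene Ntrk2), and neurotrophin-3 (Ntf3) binds TrkC (Ntrk3). The p75 receptor (Ngfr) binds all mature neurotrophins with low affinity, and together with sortilin (Sort1) it binds the precursors. In adult cortex Bdnf is made mainly by excitatory neurons and its transcription follows neuronal activity, full-length TrkB is a neuronal protein, and a truncated TrkB without the kinase is abundant in astrocytes.

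Both Trk genes make kinase-bearing and truncated receptors from 1 gene, and a count per gene adds these forms together. The 4 coding sequences below were chosen because they show where the forms part. Lower case marks the last 30 coding bases that both forms of a gene share, and capitals mark the first coding bases that belong to 1 form, read 5′ to 3′ from GENCODE vM21 transcripts. Ntrk2-201 codes for 821 residues with the kinase and Ntrk2-202 for 476 residues. All of the coding end in which Ntrk2-202 parts from Ntrk2-201 is printed, stop codon included. Ntrk3-201 codes for 825 residues with the kinase and Ntrk3-202 for 612 residues.
Ntrk2-201: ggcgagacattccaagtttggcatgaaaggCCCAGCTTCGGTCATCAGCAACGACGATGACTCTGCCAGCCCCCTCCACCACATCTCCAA
Ntrk2-202: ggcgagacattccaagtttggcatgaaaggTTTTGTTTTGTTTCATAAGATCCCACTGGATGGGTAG
Ntrk3-201: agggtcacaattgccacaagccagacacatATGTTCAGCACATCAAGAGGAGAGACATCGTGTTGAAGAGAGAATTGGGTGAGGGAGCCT
Ntrk3-202: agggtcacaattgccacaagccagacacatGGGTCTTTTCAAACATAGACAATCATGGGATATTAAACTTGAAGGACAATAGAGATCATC
After the shared 1394 coding bases of Ntrk2, the short form adds 34 coding bases before its stop codon, and the long form adds 1069. After the shared 1585 coding bases of Ntrk3, the short form adds 251 and the long form 890. The deposited values hold 1 count per gene, so the share of each form in IP and in input was not measured.

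**Figure D1:**
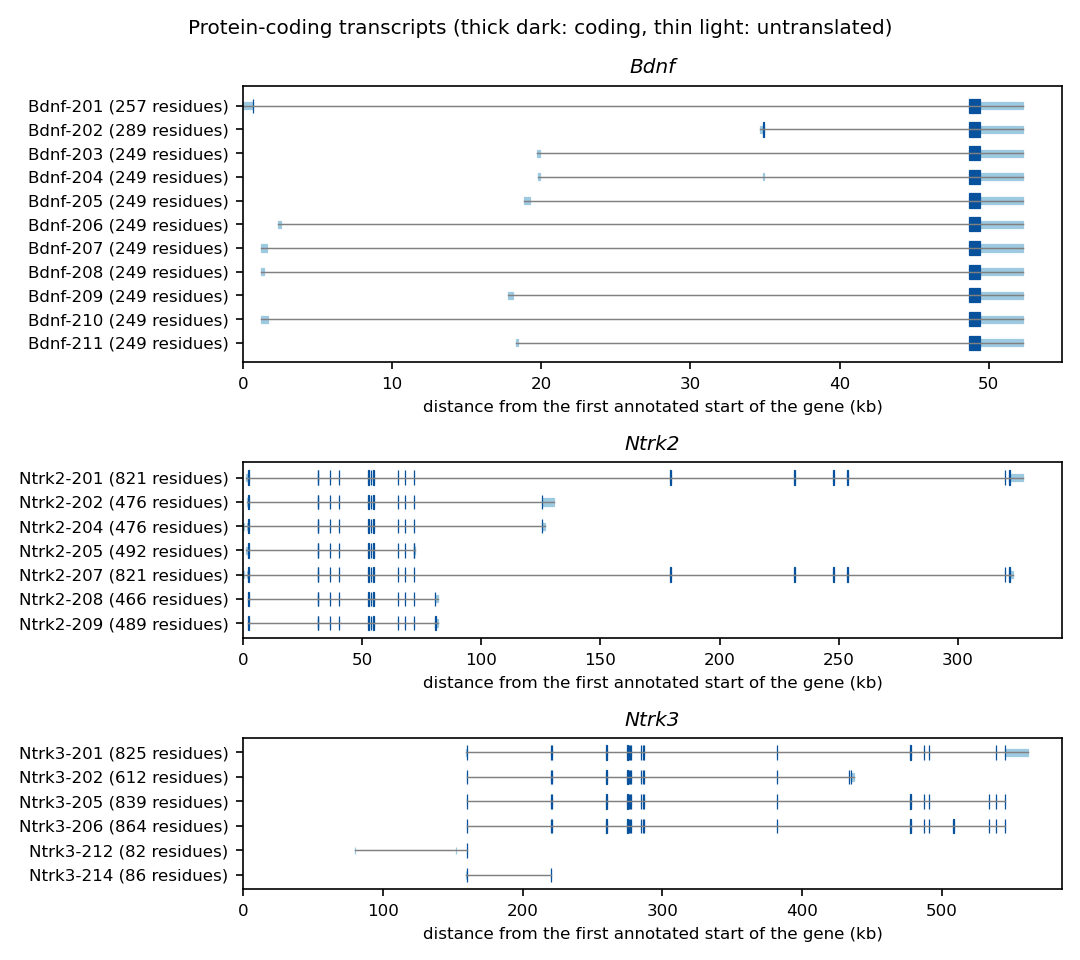
Protein-coding transcripts of Bdnf, Ntrk2 and Ntrk3 in GENCODE vM21, 1 line per transcript, with distance from the first annotated start of the gene in kb on the x axis. Thick dark boxes are coding and thin light boxes untranslated, and very short exons are drawn with a minimum line width. The 11 Bdnf transcripts start at 9 places and share 1 coding exon, and the 476-residue and 821-residue forms of Ntrk2 part after a common first stretch.

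The libraries held between 39750468 and 47567384 counts assigned to genes. The labels put IP on lane 1 and input on lane 2, which cannot be told apart from the groups themselves. Cbln1, the gene the line is named for, stood at 99.3 and 68.7 CPM (counts scaled to library size with TMM factors) in IP and at 11.9 and 8.55 CPM in input, 8.19-fold higher in IP (log2 fold change 3.03, SE 0.17, adjusted p = 1.39e-10). Rpl10a itself, a gene with close copies whose count is therefore uncertain, was lower in IP (log2 fold change -1.21, SE 0.24). Over all 16600 genes tested with edgeR's quasi-likelihood test at a Benjamini-Hochberg adjusted p under 0.05, 3886 were higher in IP (23.4%) and 3719 were lower (22.4%). The balance of the calls rests on the TMM scaling. With library sizes alone 2151 genes were higher and 5910 lower, and the median log2 fold change of all genes moved from -0.04 to -0.29. Each change given below is therefore relative to the TMM scaling, unless another setting is named. In bulk RNA of this kind, fewer cells of a type and less RNA per cell cannot be told apart.

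Of the 6 genes, 4 were higher in IP than in input: Ntf3, Sort1, Bdnf and Ntrk2. None was lower by edgeR, by DESeq2 or at an unadjusted p under 0.05 (0 of 6 each), and Ntrk3 and Ngfr did not pass the test. Among all genes tested, 23.4% were called higher and 22.4% lower. IP 2 and IP 4 exceeded input 2 and input 4 for the same 4 genes, against 35.3% of all genes, and both lay below for 0 of 6, against 37.8%. The median log2 fold change of the 6 was 0.50 and that of all genes -0.04. Calls were more frequent among abundant genes: 6.16% of genes with a mean of 1 to 5 CPM were called higher, where Ntf3 and Ngfr lie, 28.1% at 5 to 50 CPM, where Bdnf lies, 43.9% at 50 to 500 CPM, where Ntrk3 and Sort1 lie, and 63.2% at 500 CPM and above, where Ntrk2 lies.

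**Figure D2:**
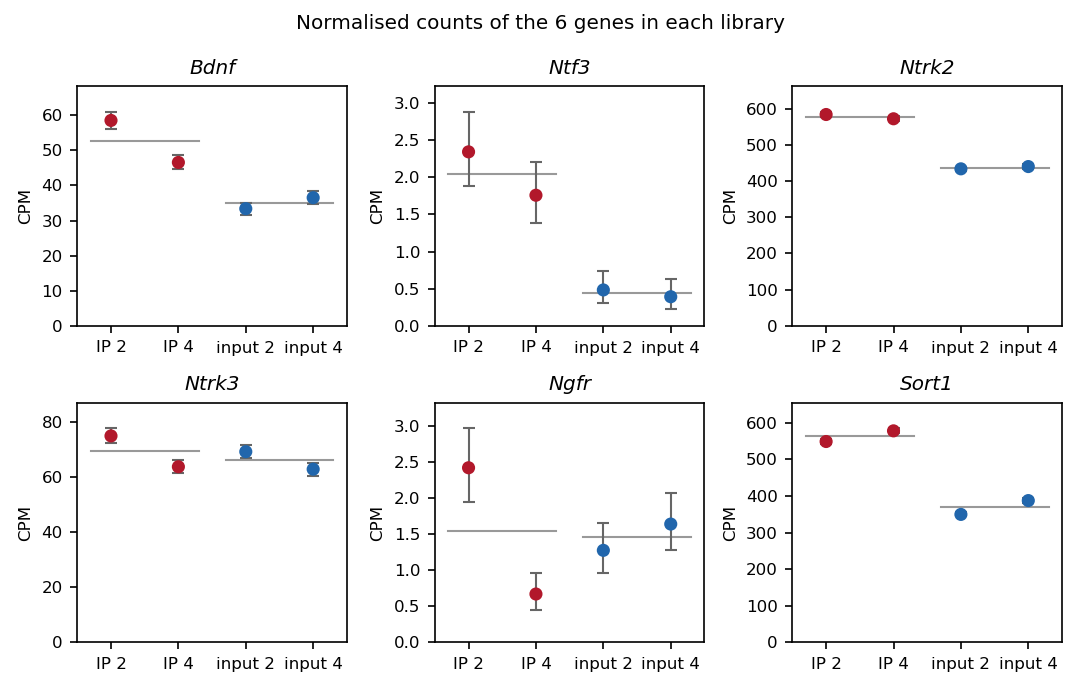
Normalised counts (CPM) of the 6 genes, 1 panel per gene with its own linear axis from 0, in IP 2, IP 4, input 2 and input 4. Points are libraries (red IP, blue input), bars are 95% exact Poisson intervals that cover counting error only, and grey lines are group means. Both red points lie above both blue points for Bdnf, Ntf3, Ntrk2 and Sort1, and the groups overlap for Ntrk3 and Ngfr.

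Among the ligands, Bdnf was the abundant one. It had 2223 counts in IP 2 and 2012 in IP 4, or 58.5 and 46.5 CPM, against 1517 in input 2 and 1580 in input 4, or 33.4 and 36.5 CPM. Both IP libraries were above both input libraries, although IP 2 and IP 4 were further apart than the input libraries were. Bdnf was 1.50-fold higher in IP (log2 fold change 0.59, SE 0.13, 95% interval 0.32 to 0.85, edgeR adjusted p = 0.000831), which placed it above 84.2% of all genes tested.

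Bdnf (ENSMUSG00000048482.14) lies on the plus strand of chr2:109674700-109727007 in GRCm38, the build also called mm10. GENCODE vM21 gives it 11 coding transcripts from 9 start sites, and all of them end in the same coding exon, so the count adds up every promoter of the gene. An antisense transcript, Gm45346, overlaps 896 of its exon bases. It shares 12.7% of the 50-base words in Bdnf transcripts. Gm45346 is not among the names counted here, and with the strand setting not given, reads from both strands of that stretch cannot be told apart.

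Calcium signals drive several Bdnf promoters through the factor CREB, which binds the cAMP response element. RefSeq's promoter windows on GRCm38.p6 (250 bases before to 50 after each start) hold Bdnf 7 times, and 4 of the 6 genes have a window, 11 windows in all. Of 4 motifs searched on both strands, the palindromic element TGACGTCA was in 0 of the 11 windows and in 1.79% of all 32851 windows. The variant TCACGTCA was in 1 of 11 and in 0.441% of all windows. Its core CGTCA, which lies within both, was in the same window and in 20.8% of all windows, and the E-box CACGTG, bound by USF factors, was in 1 of 11 (a window of Ntf3) and in 7.15%. The 250 bases before the Bdnf start at position 109692436 (plus strand, chr2:109692186-109692435) are printed because they hold the variant element, in capitals, 38 bases before the start.
Bdnf upstream: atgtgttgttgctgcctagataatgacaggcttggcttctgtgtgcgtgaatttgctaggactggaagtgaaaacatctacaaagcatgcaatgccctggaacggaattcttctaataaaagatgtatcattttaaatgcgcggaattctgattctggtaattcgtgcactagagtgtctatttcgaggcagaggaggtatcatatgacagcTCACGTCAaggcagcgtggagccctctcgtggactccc
This is the start of Bdnf-209, 1 of the 11 transcripts drawn in the plot of transcript models. A match is a run of letters and does not show binding, and the counts do not say how much RNA came from this start.

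Ntf3 was rare and showed the largest difference of the 6. It had 89 and 76 counts in IP 2 and IP 4, or 2.34 and 1.76 CPM, against 22 in input 2 and 17 in input 4, or 0.484 and 0.393 CPM. The exact Poisson intervals were 1.88 to 2.88 and 1.39 to 2.20 CPM in IP and 0.303 to 0.733 and 0.229 to 0.629 CPM in input, so the groups stood apart by more than counting error. Ntf3 was 4.64-fold higher in IP (log2 fold change 2.21, SE 0.50, 95% interval 1.18 to 3.25, edgeR adjusted p = 0.00120), above 99.7% of all genes tested. With so few counts in input the size of the difference is known only within that interval. Ntf3 (ENSMUSG00000049107.13) lies on the minus strand of chr6:126101412-126166910, and its transcripts share 0% of their 50-base words with other genes.

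Ntrk2 had the highest mean CPM of the 6, above 98.5% of all genes tested. It had 22178 and 24719 counts in IP, or 584 and 572 CPM, and 19710 and 19040 in input, or 434 and 440 CPM. The libraries of each group lay close together and the groups were well apart. Ntrk2 was 1.32-fold higher in IP (log2 fold change 0.40, SE 0.09, 95% interval 0.23 to 0.58, edgeR adjusted p = 0.000739), above 75.7% of all genes tested. With library sizes alone its log2 fold change was 0.14 and the call was lost (edgeR adjusted p = 0.170). Ntrk2 (ENSMUSG00000055254.15) spans chr13:58806569-59133970 on the plus strand with 7 coding transcripts, 2 of them coding for 821 residues.

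Because astrocytes carry truncated TrkB, their markers are given beside this value. Of 10 astrocyte markers 4 were called higher in IP and 4 lower (4 and 5 with library sizes alone), and their summed level was 3733 and 4057 CPM in IP and 4047 and 4039 CPM in input. Glul, glutamine synthetase, was higher (log2 fold change 0.84), while Slc1a2, the main glial glutamate transporter, was lower (-0.60). The part of astrocyte RNA in the Ntrk2 value was not tested.

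Ntrk3 did not differ between the groups beyond the spread of the libraries. It had 2852 and 2760 counts in IP, or 75.1 and 63.9 CPM, and 3151 and 2725 in input, or 69.3 and 63.0 CPM. Library number 2 was the higher one in both groups, and the groups overlapped. The log2 fold change was 0.07 (SE 0.11, 95% interval -0.16 to 0.30, edgeR adjusted p = 0.634), with 0 inside the interval. It was -0.03 without IP 2. A correction for GC content and the length of each gene's longest transcript gave Ntrk3 a log2 fold change of 0.38 and a call (edgeR adjusted p = 0.00884). Its longest transcript is 19703 bases, most of it untranslated. With the lower of its 2 middle coding transcripts by length, 2678 bases, in place of the longest, the corrected value was 0.02 and was not called. Ntrk3 (ENSMUSG00000059146.12) spans chr7:78175959-78738012 on the minus strand, with 20 transcripts of which 6 are coding.

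The 2 Trk genes were also set against each other within each library, which removes the scaling between libraries. There were 7.78 and 8.96 Ntrk2 counts per Ntrk3 count in IP 2 and IP 4, and 6.26 and 6.99 in input 2 and input 4. The ratio was higher in both IP libraries, by 0.34 on the log2 scale. For the ligands there were 25.0 and 26.5 Bdnf counts per Ntf3 count in IP and 69.0 and 92.9 in input, a log2 difference of -1.64. Each of these 2 comparisons separated the groups completely, and with 2 libraries against 2 the two-sided exact permutation test gave p = 0.333 for both, the smallest value it can give, so this design cannot reach 0.05.

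Ngfr was rare, and its 2 IP libraries disagreed. It had 92 counts in IP 2 and 29 in IP 4, or 2.42 and 0.671 CPM, against 58 in input 2 and 71 in input 4, or 1.28 and 1.64 CPM. IP 2 was the highest and IP 4 the lowest of the 4, so both input libraries lay between them. The exact Poisson intervals of the IP libraries, 1.95 to 2.97 and 0.449 to 0.964 CPM, do not meet, and the ratio between them was 3.61. Of 2533 genes within 2-fold of the mean CPM of Ngfr, 3.04% differed more between the IP libraries. The log2 fold change was 0.08 (SE 0.51, 95% interval -0.99 to 1.14, edgeR adjusted p = 0.919), so neither a 2-fold rise nor a fall of almost that size is left out by the interval. It was 0.74 without IP 4 and -1.10 without IP 2. Ngfr (ENSMUSG00000000120.6) lies on the minus strand of chr11:95568818-95587735 with 1 transcript.

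In and around the brain p75 is known from basal forebrain cholinergic neurons, whose fibres reach the cortex, and from Schwann cells, mural cells and meningeal fibroblasts. The 10 mural cell markers summed to 54.9 CPM in IP 2 and 43.0 in IP 4, and to 52.5 and 42.9 in input 2 and input 4, with 1 called higher and 1 lower. Cholinergic markers summed to 3.18 and 4.30 CPM in IP and 3.92 and 3.37 in input, with 1 of 5 tested called higher and 0 lower. The call was Slc18a3, the vesicular acetylcholine transporter (log2 fold change 1.74, edgeR adjusted p = 0.0493), which kept the call in 3 of 13 other settings and lost it by DESeq2 (adjusted p = 0.111) and without IP 4, input 2 or input 4 (without IP 4 the value was 1.09, edgeR adjusted p = 0.434). Slc18a3 had only 20 and 49 counts in IP and 15 and 7 in input. Slc5a7, the most abundant of the 5 cholinergic markers tested, had a log2 fold change of -0.61 and was not called. The median of the 5 was also -0.61. The 6 Schwann cell markers summed to 2.03 and 1.97 CPM in IP and 3.67 and 4.02 in input. Of the 3 tested, 0 were called higher and 1 lower (0 lower by DESeq2, 3 lower with library sizes alone), with a median of -1.65. Of these 6 markers, 2 were at 0 in both IP libraries, among them Foxd3, which was at 0 in all 4 libraries. The 10 meningeal fibroblast markers summed to 173 and 184 CPM in IP and 156 and 169 in input, with 2 called higher and 3 lower. Dcn, the proteoglycan decorin, stood at 86.7 and 79.4 CPM in IP and 11.0 and 10.4 in input. Without Dcn the sum of the other 9, taken after seeing the data, was 85.8 and 105 CPM in IP against 145 and 159 in input. A gap about as large lay in 1 marker alone, Igf2, at 33.5 and 42.6 CPM in IP and 92.4 and 102 in input. Of the 9, 1 was called higher, 3 lower and 5 were not called, so the sum does not describe the markers as a group. The mural sum was higher in IP 2 than in IP 4, as Ngfr was, but also higher in input 2 than in input 4, where Ngfr was not. The part of any of these cells in the Ngfr values was not tested.

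Sort1 was nearly as abundant as Ntrk2. It had 20845 and 24971 counts in IP, or 549 and 578 CPM, and 15885 and 16761 in input, or 350 and 387 CPM. The lower IP library was still well above the higher input library. Sort1 was 1.53-fold higher in IP (log2 fold change 0.61, SE 0.09, 95% interval 0.42 to 0.80, edgeR adjusted p = 1.90e-05), above 85.1% of all genes tested, and its p-value was the smallest of the 6. Sort1 (ENSMUSG00000068747.14) spans chr3:108284082-108361511 on the plus strand. An antisense transcript, Gm12523, overlaps 338 of its exon bases and holds 3.81% of its 50-base words, and is not among the names counted. Per count of Ngfr there were 227 and 861 Sort1 counts in IP 2 and IP 4 and 274 and 236 in input. These ratios overlapped between the groups (two-sided exact permutation p = 1) and followed the spread of Ngfr.

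**Figure D3:**
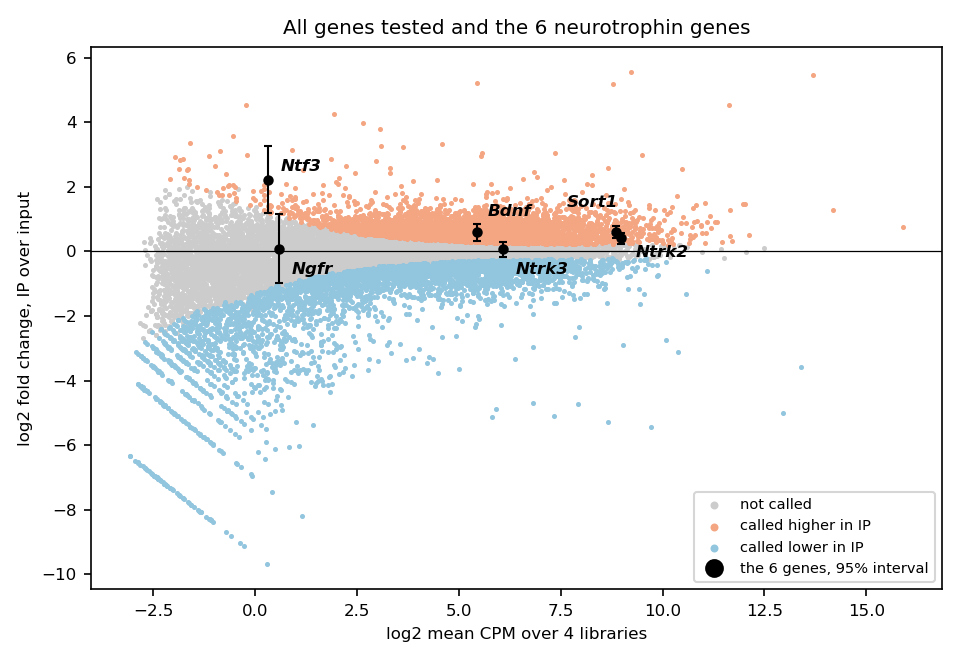
Log2 fold change of IP over input (y axis) against log2 mean CPM (x axis) for the 16600 genes tested, grey where not called, orange where called higher in IP and blue where called lower. Black points are the 6 genes with 95% intervals. Ntf3 and Ngfr lie at the low end with wide intervals, and Sort1 and Ntrk2 at the high end with narrow ones.

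To compare levels between genes, CPM was divided by length. Per kilobase of merged exons the IP means were 74.4 ± 2.72 CPM for Sort1, 29.9 ± 0.432 for Ntrk2, 8.45 ± 1.36 for Bdnf, 2.30 ± 0.263 for Ntrk3, 1.20 ± 0.241 for Ntf3 and 0.449 ± 0.359 for Ngfr (SD, n = 2 each). In input the order was 48.7 ± 3.53 for Sort1, 22.6 ± 0.230 for Ntrk2, 5.62 ± 0.356 for Bdnf, 2.19 ± 0.149 for Ntrk3, 0.423 ± 0.0748 for Ngfr and 0.256 ± 0.0376 for Ntf3 (SD, n = 2 each). No neighbours in either order had overlapping library values, and the last pair stands the other way round in IP. The order depends on the length. Merged exons of Ntrk2 and Ntrk3 come to 19292 and 30170 bases, far more than 1 transcript holds. Per kilobase of the median coding transcript, chosen as a second length after seeing the data, the IP mean was 190 CPM for Ntrk2 and 82.6 for Sort1, and 25.5 for Ntrk3 and 13.5 for Bdnf, which reverses both pairs, in input too.

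The genes whose levels over the 4 libraries lay nearest to each of the 6, by Euclidean distance of log2 CPM, were as follows. For Bdnf they were Matk, Sorcs3 and Atp13a2, at distances of 0.13, 0.18 and 0.20. For Sort1 they were Phyhip, Cntn1 and Slc12a5 (0.10 to 0.12), and for Ntrk2 Agtpbp1, Ank2 and Maged1 (0.14 to 0.16). All 9 of these were themselves called higher in IP, though Matk, Sorcs3, Atp13a2, Agtpbp1 and Ank2 were not with library sizes alone, Matk and Atp13a2 not with the GC content and length correction, and Agtpbp1 not without input 2. For Ntrk3 they were Azin1, Cnst and Crip2 (0.11 each), none of them called. Neighbours of the rare genes were farther off: Lrrn4, Cfap58 and Tex15 for Ntf3 (0.55 to 0.78), and Esrrb, Teddm2 and Spink8 for Ngfr (0.60 to 0.63). With 4 libraries in 2 groups, such a likeness describes level and fold change and nothing else.

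The remaining genes of the pathway were taken from 10 lists with 142 different genes, of which 139 were tested. In all, 53 were called higher in IP and 25 lower, and their median log2 fold change was 0.13, against 23.4% higher, 22.4% lower and -0.04 over all genes. Over all genes the share called higher rose with abundance, from 1.22% below 1 CPM to 63.2% at 500 CPM and above. Neither the pooled pathway genes nor the lists below were matched for level, so these counts do not show an excess over genes of like abundance. With library sizes alone the split of the pathway genes turned to 24 higher and 53 lower. Lists described below by their counts therefore carry the counts under that scaling in the same sentence.

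Of the other ligands, Ntf5, neurotrophin-4, had 8 and 0 counts in IP and 3 and 2 in input and was too rare to test.

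Among other receptors and co-receptors, 6 of 7 tested were higher in IP and 0 lower (0 at an unadjusted p under 0.05 and 0 by DESeq2), and 1 was higher and 1 lower with library sizes alone. Rtn4r, the Nogo receptor that signals together with p75, stood at 81.3 and 74.5 CPM in IP and 41.8 and 39.1 in input (log2 fold change 0.94, SE 0.11, edgeR adjusted p = 1.05e-06). Lingo1, the other partner in that complex, was higher by 0.36 on the log2 scale and kept its call in 10 of 14 other settings. It lost the call under the GC content and length correction (0.18), also when joined to a replicate block, and with library sizes alone (0.10). The correction by median coding transcript took the call of Lingo1 away too. The sortilin relatives Sorcs3 and Sorcs2 were higher by 0.46 and 0.44. Both lost the call with library sizes alone (0.20 and 0.18), and Sorcs2 also without input 4 (0.40, edgeR adjusted p = 0.0559) and with the correction by median coding transcript (0.28). Sorcs1, named because it was the exception, had overlapping groups (log2 fold change -0.12, edgeR adjusted p = 0.471).

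In processing and secretion of neurotrophins, 6 of 12 tested were higher in IP and 0 lower (0 at an unadjusted p under 0.05 and 0 by DESeq2), with 3 higher and 2 lower under library sizes alone. Cpe, carboxypeptidase E, which sorts proBDNF to the regulated pathway, was at 704 and 643 CPM in IP and 409 and 378 in input (log2 fold change 0.78, SE 0.09). Serpini1, neuroserpin, an inhibitor of tissue plasminogen activator, was higher by 0.75, Pcsk1, a proprotein convertase, by 0.69, and Hap1, which binds proBDNF in transport, by 0.56 (0.30 and not called with library sizes alone). In trafficking and turnover of Trk receptors, 10 of 17 were higher and 2 lower, with 7 higher and 4 lower under library sizes alone. The 4 with the largest differences were Hgs, an endosomal sorting protein (log2 fold change 1.08), Klc1, a kinesin light chain (1.05), Gga3, an adaptor in endosomal recycling (0.82), and Rab11a, of recycling endosomes (0.72).

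The signalling lists held calls in both directions. Of 19 adaptors at the receptor, 1 was called higher and 4 lower (0 and 12 with library sizes alone), with a median of -0.17. Shc1, which docks on phosphorylated Trk, was lower by 1.16 on the log2 scale and lost the call without input 2 (-0.99, edgeR adjusted p = 0.0545). In the Ras and MAP kinase branch, 4 of 18 were higher and 4 lower (2 and 8 with library sizes alone). Map2k1, the kinase MEK1, was higher by 0.95, and Nras was lower by 0.86. In the PI3 kinase and Akt branch, 3 of 15 were higher and 5 lower (2 and 9 with library sizes alone). Pik3cd, a catalytic subunit of PI3 kinase, and Foxo3, a transcription factor that Akt inhibits, were higher by 0.84 and 0.63. Of 20 effectors of p75, 8 were higher and 2 lower (4 and 6 with library sizes alone). Among them Trp53 was higher by 0.80, Ncstn, a subunit of the gamma-secretase that cuts p75, by 0.74, and Mapk10, the neuronal JNK3, by 0.60, while Irak1 was lower by 0.71. Ripk2, a kinase recruited by p75, had the largest difference of the list and was lower by 0.94 on the log2 scale, a call lost without input 2 (-0.70, edgeR adjusted p = 0.0855).

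**Figure D4:**
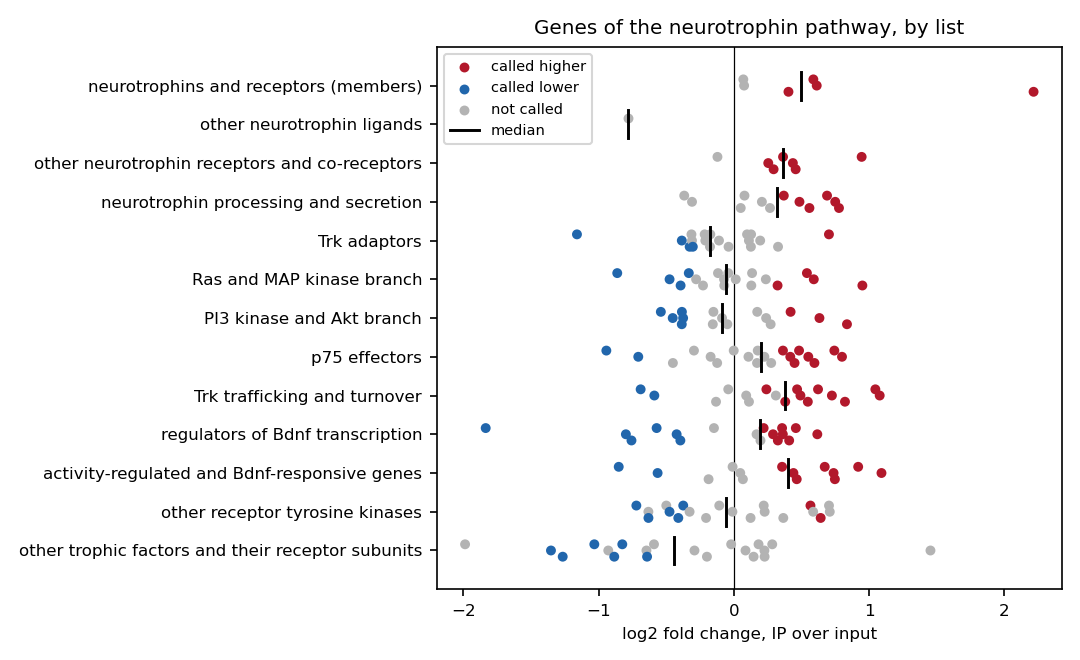
Log2 fold change of IP over input (x axis) for the tested genes of each list, 1 row per list and 1 point per gene, red where called higher, blue where called lower and grey where not called. Black bars are medians. The 6 neurotrophin genes have a median of 0.50, receptors, processing and trafficking lists lie mostly to the right of 0, and other trophic factors mostly to the left.

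Genes upstream and downstream of Bdnf were read in the same way. Of 17 regulators of Bdnf transcription, 8 were higher and 6 lower (0 and 7 with library sizes alone). Creb1, which codes for CREB, stood at 76.5 and 73.8 CPM in IP and 111 and 113 in input (log2 fold change -0.57, SE 0.10, edgeR adjusted p = 9.60e-05), and its coactivator Crebbp was lower by 0.76 on the log2 scale. Usf1 was higher by 0.62 and lost the call under the GC content and length correction (0.40, edgeR adjusted p = 0.0696) and with library sizes alone (0.36). Of 14 genes regulated by activity or by Bdnf, 8 were higher and 2 lower (5 and 4 with library sizes alone). The immediate early gene Nr4a1 was at 301 and 288 CPM in IP and 143 and 133 in input (log2 fold change 1.09, SE 0.09), and Dusp1 and Dusp6, MAP kinase phosphatases, were higher by 0.92 and 0.75. The neuropeptide gene Npy was lower by 0.85 on the log2 scale. Egr1, the most abundant of the list, was at 1006 and 1176 CPM in IP and 1214 and 1270 in input (log2 fold change -0.19, edgeR adjusted p = 0.100), and was called lower under 7 of 14 other settings.

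Set beside these, 2 of 20 other receptor tyrosine kinases were higher in IP and 5 lower (1 and 9 with library sizes alone), with a median of -0.06. Epha4, an ephrin receptor, was higher by 0.64, while Fgfr2 and Fgfr1, fibroblast growth factor receptors, were lower by 0.72 and 0.63 on the log2 scale. Of 20 other trophic factors and receptor subunits tested, 0 were higher by edgeR and 0 by DESeq2 (2 at an unadjusted p under 0.05) and 6 were lower (0 and 10 with library sizes alone), with a median of -0.44. Igf2 and Vegfa, insulin-like and vascular endothelial growth factors, were lower by 1.35 and 1.03 on the log2 scale. Whether the neurotrophin genes differ from these lists was not tested.

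The cells that make or receive neurotrophins in cortex were read from their markers. Of 12 pan-neuronal markers 10 were higher in IP and 1 lower (the same counts with library sizes alone). Their summed level was 42176 and 39415 CPM in IP and 17909 and 18816 in input. Most of that sum was 1 gene, Snap25, at 27045.9 and 25461.3 CPM in IP and 10530.5 and 10911.7 in input. The marker called lower was Map2, at 341 and 344 CPM in IP and 987 and 1131 in input (log2 fold change -1.63). Of 10 markers of glutamatergic neurons 7 were higher and 1 lower (3 and 1 with library sizes alone), with summed levels of 6982 and 7260 CPM in IP and 5138 and 5428 in input. Neurod6, a marker of excitatory cortical neurons, was higher by 1.42 and Camk2a by 0.48, while Nrgn, an abundant marker of the same neurons, named after its values were seen, was lower by 0.42 on the log2 scale (edgeR adjusted p = 0.000526). GABAergic markers had 1 of 10 higher and 3 lower (0 and 4 with library sizes alone), with sums of 937 and 1144 CPM in IP and 1031 and 1085 in input, and oligodendrocyte markers 2 of 10 higher and 6 lower (2 and 8), with sums of 1446 and 1474 CPM in IP and 1917 and 1834 in input. The part of these cells in the values of Bdnf, Ntf3, Ntrk2 and Sort1 was not tested. The markers of glutamatergic neurons were detected in input and IP.

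The 6 genes were also followed through 14 other ways of processing the counts. Bdnf, Ntf3 and Sort1 were called higher in each of them, with log2 fold changes of 0.33 to 0.80, 1.96 to 2.42 and 0.35 to 0.74. Ntrk2 was called in all but the one with library sizes alone (0.14 to 0.50).

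**Figure D5:**
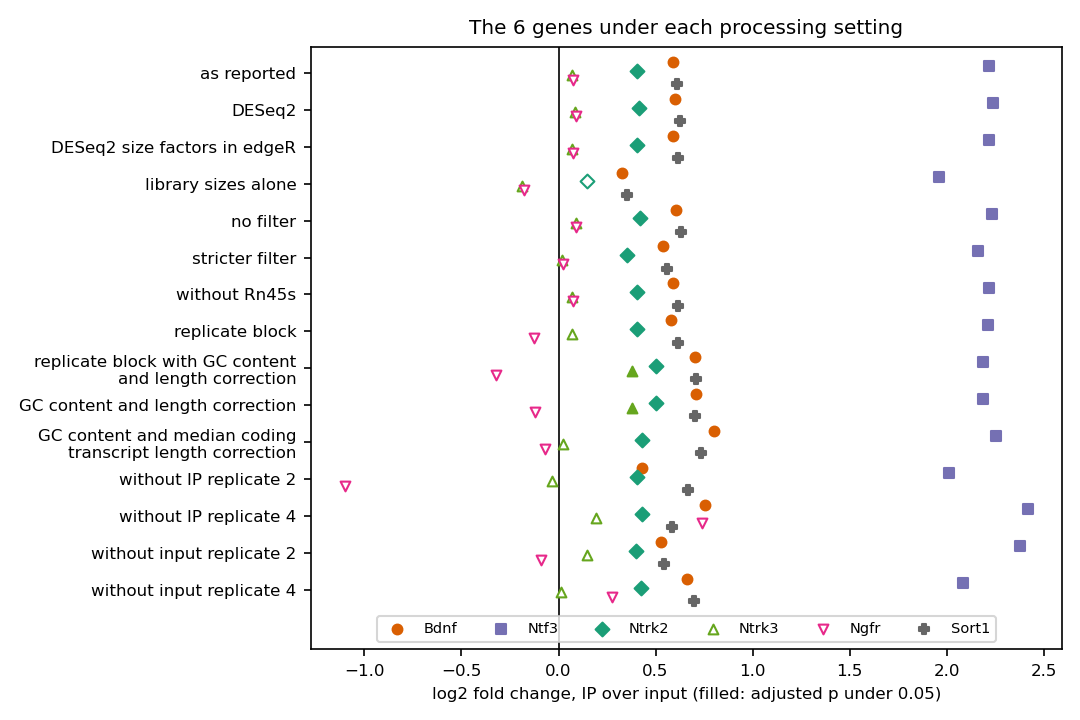
Log2 fold change of IP over input (x axis) of the 6 genes as reported and under 14 other settings (rows), filled where the adjusted p was under 0.05. Bdnf, Ntf3 and Sort1 stay to the right of 0 and filled in each row, Ntrk2 is open with library sizes alone, Ntrk3 is filled only under the corrections that use the longest transcript, and Ngfr runs from -1.10 to 0.74.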

How the data were processed

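Cortex was homogenised and EGFP-tagged polysomes captured, per the labels' protocols. The authors deposited whole-number counts per gene, not normalised; HTSeq, STAR 2.0.0e and the mm10 build are named, per the submitters' processing notes. For annotation, strand and kit the sources used here give nothing. Lines without a gene name were dropped (outside features 7.31% to 14.9% of records, ambiguous 1.54% to 5.09%, not uniquely aligned 30.7% to 38.0%). The test was edgeR 4.0.16 under R 4.3.3 (TMM, filterByExpr with minimum count 10 and total 15, quasi-likelihood, two-sided, Benjamini-Hochberg adjusted p under 0.05) over 16600 of 21923 genes with counts, and the script was tested on simulated data. The biological coefficient of variation was 12.5%. Replicates differed beyond sampling noise (chi-square per degree of freedom 22.5 in IP, 15.2 in input). DESeq2 1.42.0 and the other alternatives are given below. Lengths and transcripts came from GENCODE vM21.

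The genes and lists were chosen with earlier results of these data known. Named were the 6 genes, Cbln1 and Rpl10a, the 3 nearest genes by level, from each pathway list up to 4 called genes of at least 1 CPM with the largest difference and the most abundant (the 2 most abundant where none was called), and from each marker list the most abundant and up to 2 called; not all are printed, and some are not reported here.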

Additional observations from a re-analysis of the deposited data

How the results depend on the processing

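Bdnf, Ntf3 and Sort1 kept direction and call under DESeq2, other size factors, no or a stricter filter, without Rn45s, with a replicate block, with GC content and length corrections and without each library. With library sizes alone the genes higher in IP numbered 2151 and those lower 5910, 24 and 53 of them in the pathway, and log2 fold changes were 0.14 for Ntrk2, -0.19 for Ntrk3 and -0.18 for Ngfr. Under the GC content and length correction Ntrk3 was 0.38, Ngfr -0.12 and Sorcs1 0.064. With the median coding transcript, added after seeing the data, Ngfr was -0.071. The replicate block gave -0.13 for Ngfr and, joined to the correction, 0.38 for Ntrk3, -0.32 for Ngfr and 0.053 for Sorcs1. Shared library numbers do not pair the samples by any label (correlation of deviations 0.048), and the block called 4314 genes higher and 4037 lower. Leaving out each library in turn, where a lone library is assumed to vary like the other group, ranges were -0.034 to 0.19 for Ntrk3, -1.10 to 0.74 for Ngfr, -0.31 to 0.070 for Sorcs1 and -0.17 to 1.76 for the log2 ratio of Sort1 to Ngfr. The cause of these changes was not tested. Depth limits Ntf3 and Ngfr, with under 100 counts a library, and Ntf5 could not be tested. A pseudocount of 1 left the direction of all 3 ratios as it was.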
